A study of Mus musculus with 6 samples.

Results

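Interleukins are secreted proteins through which blood and immune cells signal to one another, and their receptors are assembled from chains, several of which are shared between receptors. The genes described here are the interleukins, their receptor chains and their natural inhibitors, chosen as every row of the count table whose symbol begins with Il and a digit. This gave 83 of the 23608 rows, of which 37 were ligands, 40 receptor chains, 4 inhibitors, 1 an enzyme (Il4i1) and 1 an antisense transcript (Il1bos). In these cells the receptor chains were measured far more often than the ligands: 22 receptor chains and 4 ligands had enough counts to be tested, and 2 of the tested genes (6.9%, beside 2.01% of all genes tested) passed the test between the groups. The receptor chain Il10ra and the cytokine Il16 were both higher in the libraries labelled tamoxifen, and neither passed in limma-voom or without any 1 library other than tamoxifen 4.

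The cells were leukemia cells carrying a Usp18 +/f genotype and a Cre transgene that acts after tamoxifen is given, transformed by a retrovirus that expresses AML1-ETO9a (AE9a) together with GFP, and grown in recipient mice. Recipients received oil (Usp18 +/f) or tamoxifen (Usp18 +/Δ, with 1 floxed allele meant to be removed by Cre), and splenic GFP+ Lin- c-Kit+ cells were sorted on day 3 from the start of the injections. Each group held 3 bulk RNA-seq libraries, and both groups carried the floxed allele, the Cre and the oncogene, so that exposure to tamoxifen itself and loss of the allele cannot be told apart.

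Receptors of the interleukin-1 family signal through MYD88 and NF-kB, whereas most of the other interleukin receptors signal through JAK kinases and STAT factors. The common gamma chain (Il2rg) and the common beta chain (Csf2rb) each serve several receptors, and a receptor generally needs both of its chains in the same cell. Mast cells and basophils are known for the IL-33 receptor chain Il1rl1, for the shared beta chain and for the cytokines Il4 and Il13.

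Libraries held between 17118964 and 20741399 estimated counts, and are named by the numbers of the count table (oil 1, 3 and 4; tamoxifen 1, 2 and 4). The targeted gene went against the labels: Usp18 stood at 9.12, 11.0 and 11.2 CPM (counts relative to the scaled library total) in the oil libraries and at 15.1, 28.0 and 19.4 CPM in the tamoxifen libraries, with an adjusted p of 0.0739. The groups did not overlap, the counts per gene do not separate the floxed part, and oil and tamoxifen therefore mean the libraries labelled so throughout. Leaving out tamoxifen 4 raised the share of all genes called from 2.01% of 11614 to 36.3% of 11851. Kit was present at 439 to 781 CPM, Runx1 at 545 to 809 CPM and the myeloid factor Spi1 at 68.2 to 97.5 CPM, while the pan-leukocyte gene Ptprc did not exceed 0.709 CPM and the myeloid genes Mpo and Cd33 did not exceed 0.236 CPM. Markers of T cells, B cells, neutrophils, dendritic cells and endothelial or stromal cells had at most 0.823 CPM in any library. The 12 mast cell and basophil markers all had enough counts to be tested. Their summed level was 2909 to 3107 CPM in the oil libraries and 3653 to 7516 CPM in the tamoxifen libraries, lowest of these in tamoxifen 4. Of the 12, 2 (Fcer1a and Tpsb2) passed the test as higher, beside 1.75% of all genes tested. Tpsb2 had enough counts to be tested only because of its tamoxifen libraries. The 6 erythroid markers summed to 3420 to 5569 CPM in oil and 2736 to 7059 CPM in tamoxifen. Of the 7 NK and innate lymphoid markers, 5 were at 0, Rora reached 0.177 CPM in 1 library, and the factor gene Gata3 made up the rest, with 110 to 121 CPM in oil and 64.5 to 91.9 CPM in tamoxifen. The macrophage list summed to at most 44.7 CPM. In bulk samples, fewer cells of a type and less RNA per cell cannot be told apart.

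Of the 83 genes, 29 had no count in any library, 25 had some counts but too few to be tested, and 29 were tested. The level per kilobase of exon (CPM per kb) was very uneven among the tested genes. Il1rl1, which encodes the IL-33 receptor chain ST2, stood alone at the top with a mean of 240 CPM per kb in oil and 325 CPM per kb in tamoxifen, and it took 68.6% to 74.7% of the summed CPM of all 83 genes. The next levels were those of the shared common gamma chain Il2rg (58.5 and 66.4 CPM per kb), the IL-9 receptor chain Il9r (19.8 and 21.9), the IL-36 receptor chain Il1rl2 (18.0 and 17.7) and the shared chain Il10rb (15.8 and 17.6), the last 3 of which overlapped one another across libraries. The summed CPM of the 83 genes was 2308, 2401 and 2366 in oil 1, 3 and 4, 3493 in tamoxifen 1, 3491 in tamoxifen 2 and 2328 in tamoxifen 4.

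**Figure D1:**
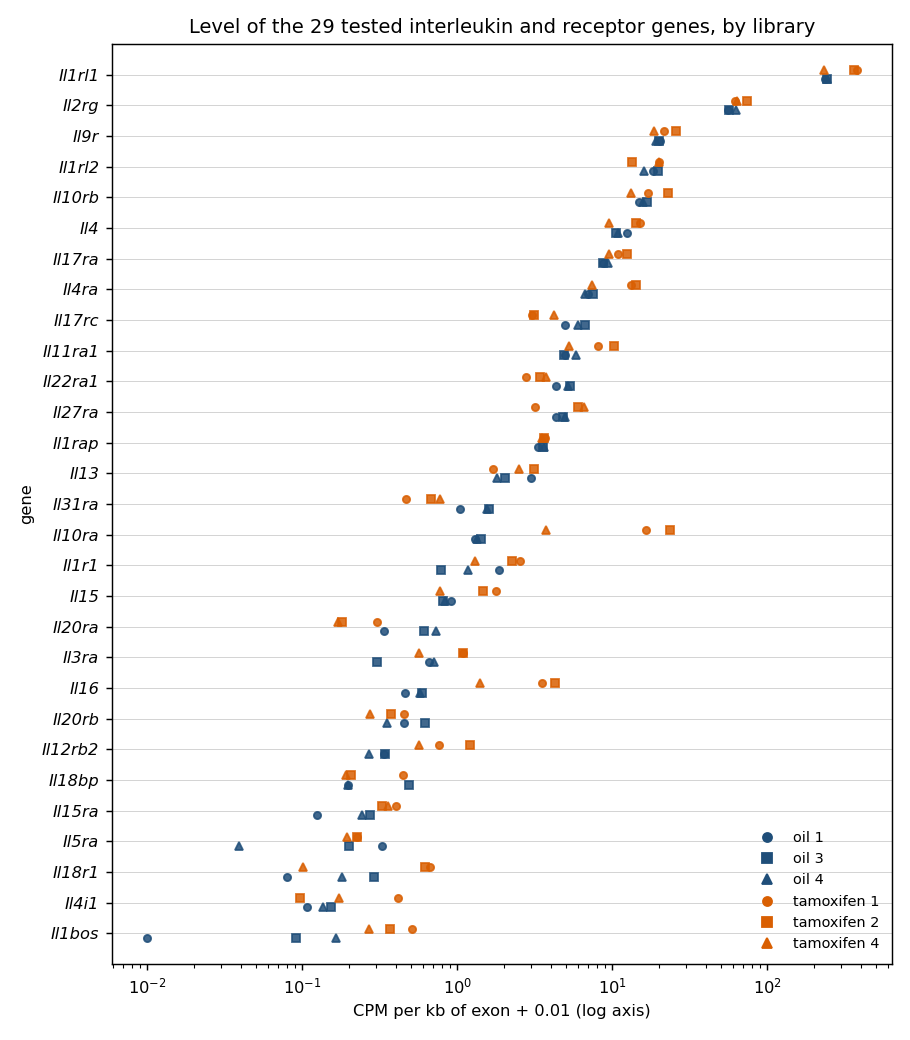
Level of each of the 29 tested genes in each library, as CPM per kb of exon plus 0.01 on a log axis, with oil in blue, tamoxifen in orange and 1 marker shape per library. Il1rl1 lies alone at the right, and the tamoxifen points of Il10ra and Il16 lie to the right of their oil points.

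Most ligands were not measurable. Of the 37, 19 had no count at all, namely Il3, Il9, Il33, Il34, Il25 and Il27, both subunits of IL-12 (Il12a and Il12b), Il17a, Il17b, Il19, Il20, Il21, Il22, Il24, Il31 and the IL-36 and IL-38 genes Il1f8, Il1f9 and Il1f10. A count of 0 allows up to 3 counts, which is 0.145 to 0.177 CPM at these depths and covers counting error only. The natural inhibitors Il1rn and Il1f5 were also at 0, as were the receptor chains Il1r2, Il1rapl1, Il1rapl2, Il7r, Il13ra2, Il17rd, Il17re and Il23r.

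Among the 25 genes with some counts, the highest single value was 15.5 counts, for the inflammasome-processed cytokine Il18. Il18 held 12.5, 15.5 and 8 counts in oil and 6, 8 and 4 in tamoxifen, so the groups met at 8. Il1b, the other cytokine matured by caspase-1, held 2, 4 and 2 counts in oil and 2.5, 8 and 3 in tamoxifen. Neither gene had enough counts for a test. The pyrogenic cytokine Il6 held 0, 4 and 0 counts in oil and 11, 5.5 and 5 in tamoxifen. Il10, the anti-inflammatory ligand of Il10ra, held 0, 4 and 0 counts in oil and 3.5, 4.5 and 1 in tamoxifen. Values this low are near the counting floor. The IL-21 receptor Il21r held 1, 0 and 0 counts against 2, 9.5 and 7, and the IL-2 receptor alpha chain Il2ra 0, 0 and 0 against 3, 6 and 0. Il6st, the gp130 chain shared by the IL-6 family, held 8, 3 and 8 counts in oil and 1, 0.5 and 13.5 in tamoxifen, and Il12rb1, the chain shared by the IL-12 and IL-23 receptors, held 6.5, 3 and 6 against 0, 3 and 12.5. In both of these genes tamoxifen 4 held the highest count of the 6 libraries. Il1a, Il6ra and Il11 reached at most 7 counts. The other 15 reached at most 5: the ligands Il1f6, Il2, Il5, Il7, Il10, Il17c, Il17d, Il17f and Il23a, the inhibitor Il22ra2, and the receptor chains Il2rb, Il11ra2, Il13ra1, Il17rb and Il18rap.

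The 29 tested genes were then compared between the groups with the edgeR quasi-likelihood test, adjusted by the Benjamini-Hochberg method over the 11614 genes tested. Of these 29, 2 passed at an adjusted p under 0.05 (6.9%, beside 2.01% of all genes tested), both higher in tamoxifen (background 1.75%). None passed as lower (background 0.267%), although 4 had an unadjusted p under 0.05 in that direction. In total 12 had an unadjusted p under 0.05, which is 41.4% beside 20.6% of all genes, 8 of them higher (background 12.6%) and 4 lower (background 7.99%). The groups did not overlap for 10 of the 29 (34.5%, beside 25.1% of all genes). In 6 of them every tamoxifen library was above every oil library (background 13.3%), and in 4 every tamoxifen library was below (background 11.8%). Il1bos and Il20ra are among these 10 and among the 12 above. Il1bos had enough counts to be tested only because of its tamoxifen libraries, and Il20ra only because of its oil libraries. The direction of these genes was thus set by the filter and is no support. The median log2 fold change of tamoxifen against oil was 0.22 over the 29 genes and 0.00012 over all genes tested. These p-values measure the spread between the samples of a group.

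**Figure D2:**
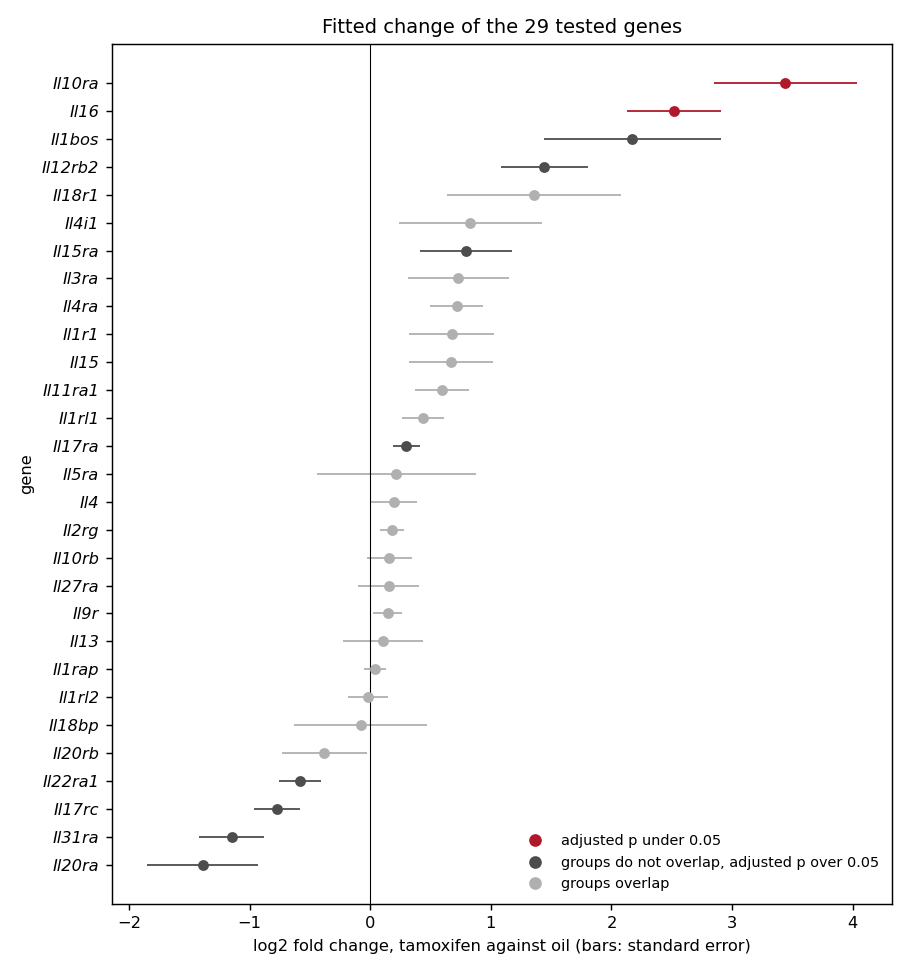
Fitted log2 fold change of tamoxifen against oil for the 29 tested genes, with bars for the standard error. Il10ra and Il16 (red) passed the test, and 8 further genes (dark grey) had groups that did not overlap.

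Il10ra, the chain that binds IL-10, showed the larger of the 2 called differences. It stood at 4.50, 4.94 and 4.63 CPM in the oil libraries (1, 3 and 4, in this order throughout), against 57.5, 82.8 and 13.04 CPM in the tamoxifen libraries (1, 2 and 4). The oil libraries lay close together, whereas tamoxifen 4 fell between them and the other tamoxifen libraries. Il10ra (GRCm38 chromosome 9, 45253837 to 45269149, minus strand) was 10.9-fold higher on average, from 4.69 ± 0.227 to 51.1 ± 35.3 CPM (SD, n = 3 each), and the fitted log2 difference of 3.44 ± 0.59 (SE) passed at an adjusted p of 0.0399 in edgeR. Without tamoxifen 4 the log2 fold change was 3.90 and the adjusted p 1.1e-06, and without any 1 of the other 5 libraries the gene no longer passed, with adjusted p of at least 0.0884.

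Il16 encodes a precursor that is cleaved to a chemoattractant for CD4-bearing cells. It stood at 3.55, 4.60 and 4.42 CPM in the oil libraries and at 27.8, 33.5 and 10.9 CPM in tamoxifen 1, 2 and 4. All the tamoxifen libraries were above all the oil libraries, again with tamoxifen 4 lowest. Il16 (GRCm38 chromosome 7, 83642825 to 83745726, minus strand) was 5.75-fold higher, from 4.19 ± 0.567 to 24.1 ± 11.7 CPM (SD, n = 3 each), and the log2 difference of 2.52 ± 0.39 (SE) passed at an adjusted p of 0.0330 in edgeR. Without tamoxifen 4 the log2 fold change was 2.86 and the adjusted p 8.4e-06, and without any 1 of the other libraries the adjusted p was at least 0.0761. The cholesterol-transfer gene Stard5 lies on the opposite strand and shares 1202 of the 7865 exonic bases of Il16. Stard5 stood at 2.98, 3.10 and 3.19 CPM in oil and 8.12, 10.1 and 5.97 CPM in tamoxifen, and since the strand setting of the counting is not stated, reads from the shared bases cannot be assigned. Over the same libraries the progenitor marker Cd34 stood at 9.68, 8.43 and 11.7 CPM in oil and 113, 134 and 41.8 CPM in tamoxifen, and the mast cell and basophil receptor gene Fcer1a at 68.2, 98.0 and 85.7 CPM in oil and 355, 552 and 188 CPM in tamoxifen. Cd34 and Fcer1a had the same order of tamoxifen libraries as Il10ra and Il16. Of the mast cell and basophil markers, Tpsb2, Mcpt8, Prss34 and Ms4a2 had another order, and the rest had this one. The order was not counted over all genes tested, so it cannot be read as a trait of these genes. Of the 12 mast cell and basophil markers, 8 had every tamoxifen library above every oil library (background 13.3%) and none below. Ms4a2, of the same list, stood at 862, 909 and 917 CPM in oil and 830, 931 and 854 CPM in tamoxifen. The part of such cells in the result was not tested.

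**Figure D3:**
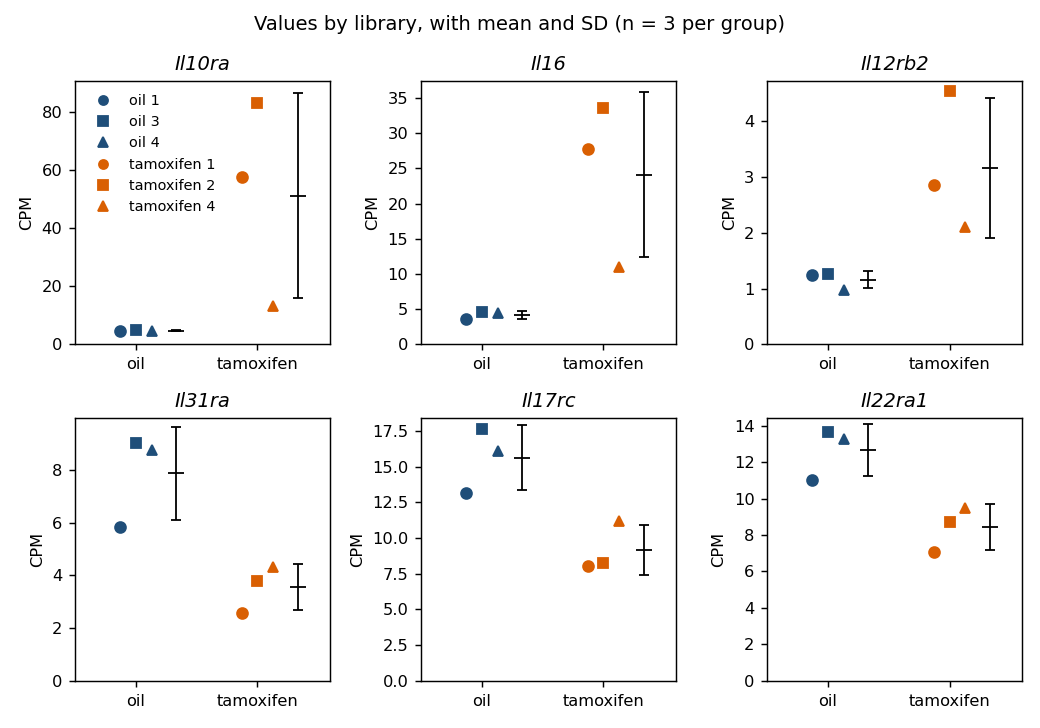
CPM in each library of the 3 tested genes with the lowest adjusted p among the higher ones (Il10ra, Il16, Il12rb2) and among the lower ones (Il31ra, Il17rc, Il22ra1), with the mean and SD of each group (n = 3). Tamoxifen 4 lies nearest to the oil libraries in each of the 6 panels.

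RefSeq promoter windows of GRCm38.p6, the 250 bases before a start site, were available for 66 of the 83 genes and for 24 of the 29 tested ones. They were searched on both strands for GAS, the site of STAT dimers (TTCNNNGAA), for an ISRE core, the site of interferon-responsive factors (GAAA and GAAA, 2 bases apart), for the NF-kB site kappaB, and for a GATA site (AGATAA). GAS was present in 7.02% of all 32851 windows, the ISRE core in 2.98%, kappaB in 3.9% and GATA in 9.99%. Over the 33 windows of the tested genes the shares were 12.1%, 3.03%, 6.06% and 21.2%. A match is a description of letters and not of a bound site.

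Of the called genes, Il16 had 3 windows in the table. The start site farthest downstream, which lies inside the gene, is shown because its window was the only one of the 3 with a match. The capitals mark overlapping kappaB matches on the opposite strands, 49 to 39 bases before the start. The window is chr7:83655506-83655745 on the minus strand, printed 5′ to 3′ without the last 10 bases.
Il16 downstream start: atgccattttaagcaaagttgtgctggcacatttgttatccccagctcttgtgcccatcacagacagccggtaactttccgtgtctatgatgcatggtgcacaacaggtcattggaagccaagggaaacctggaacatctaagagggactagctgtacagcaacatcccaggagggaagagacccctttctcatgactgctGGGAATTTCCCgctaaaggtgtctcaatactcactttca

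Il12rb2, the signalling chain of the IL-12 receptor, stood at 1.24, 1.26 and 0.978 CPM in oil and at 2.85, 4.55 and 2.10 CPM in tamoxifen. The groups did not overlap, and its log2 fold change came to 1.44 ± 0.36 (SE) with an adjusted p of 0.0874. Without tamoxifen 4 it was 1.67, with an adjusted p of 0.0049. Il12rb2 shares 1519 of its 3794 exonic bases with Serbp1 on the opposite strand, an abundant mRNA-binding protein gene at 898.9 to 1137 CPM, so reads from the shared bases cannot be assigned. Its partner chain Il12rb1 had 0 to 12.5 counts, too few to be tested, and both IL-12 subunits had none.

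Of the other genes with every tamoxifen library above every oil library, Il17ra, the chain shared by the IL-17 receptors, stood at 74.9, 75.6 and 80.6 CPM in oil and 94.8, 107 and 82.7 CPM in tamoxifen. Its log2 fold change was 0.30 ± 0.11 (SE) with an adjusted p of 0.196. Il15ra, which binds IL-15 and presents it to neighbouring cells, stood at 0.507, 1.16 and 1.03 CPM against 1.76, 1.42 and 1.55 CPM, with a log2 fold change of 0.79 and an adjusted p of 0.281. Il1bos, transcribed from the strand opposite to Il1b, stood at 0, 0.242 and 0.463 CPM against 1.48, 1.06 and 0.773 CPM, with an adjusted p of 0.170. Il1bos shares 25 exonic bases with Il1b, which itself did not exceed 0.472 CPM.

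In the 4 genes with every tamoxifen library below every oil library, none passed the test. Il31ra, the IL-31 binding chain, stood at 5.85, 9.01 and 8.75 CPM in oil and 2.58, 3.78 and 4.31 CPM in tamoxifen, a log2 difference of -1.15 ± 0.27 (SE) at an adjusted p of 0.0768. Il17rc, the chain that pairs with Il17ra for IL-17A and IL-17F, stood at 13.2, 17.6 and 16.1 CPM in oil and 8.01, 8.27 and 11.2 CPM in tamoxifen, a log2 difference of -0.77 ± 0.19 (SE) at an adjusted p of 0.0845. Tamoxifen 4 was the highest of the tamoxifen libraries in both. Il22ra1, the IL-22 binding chain, stood at 11.0, 13.7 and 13.3 CPM against 7.08, 8.74 and 9.50 CPM, with a log2 fold change of -0.59 and an adjusted p of 0.133. Il20ra, which binds cytokines of the IL-20 group, stood at 0.788, 1.45 and 1.75 CPM against 0.713, 0.413 and 0.387 CPM, with a log2 fold change of -1.39 and an adjusted p of 0.164. Without tamoxifen 4, Il31ra had an adjusted p of 0.0049, Il17rc of 0.0024 and Il22ra1 of 0.014.

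The windows of Il31ra and Il12rb2 each held 1 GAS match and are shown because both genes have a single start in the table and their log2 fold changes had opposite signs. The capitals mark the GAS letters, 191 to 183 bases before the start of Il31ra (chr13:112580673-112580912, minus strand) and 123 to 115 bases before that of Il12rb2 (chr6:67376199-67376438, minus strand). The single window of Il17rc held none of the 4 motifs.
Il31ra: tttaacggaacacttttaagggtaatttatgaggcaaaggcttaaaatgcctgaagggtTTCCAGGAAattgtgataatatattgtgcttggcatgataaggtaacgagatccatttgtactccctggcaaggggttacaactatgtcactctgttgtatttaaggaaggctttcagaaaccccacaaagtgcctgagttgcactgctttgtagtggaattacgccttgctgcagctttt
Il12rb2: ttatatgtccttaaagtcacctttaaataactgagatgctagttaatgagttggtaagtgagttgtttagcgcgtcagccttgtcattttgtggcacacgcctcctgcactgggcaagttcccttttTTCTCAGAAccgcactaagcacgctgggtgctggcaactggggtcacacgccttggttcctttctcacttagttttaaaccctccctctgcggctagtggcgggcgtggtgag

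Within the IL-1 family, several receptor chains lie in a row on chromosome 1, and their levels differed widely. Il1rl1 stood at 1619, 1681 and 1665 CPM in oil and at 2610, 2515 and 1598 CPM in tamoxifen. Tamoxifen 1 and 2 were above all the oil libraries and tamoxifen 4 was below them, so the groups overlapped, and its log2 fold change came to 0.44 ± 0.18 (SE) with an adjusted p of 0.224. Without tamoxifen 4 it was 0.63 with an adjusted p of 1.0e-04. Among the tamoxifen libraries the summed mast cell and basophil markers were also lowest in tamoxifen 4. Unlike Il1rl1, their sum there (3653 CPM) was above that of every oil library (2909 to 3107 CPM). The part of these markers in the result for Il1rl1 was not tested. Its accessory chain Il1rap, which IL-1, IL-33 and IL-36 receptors share, stood at 37.7, 40.2 and 41.2 CPM in oil and 41.6, 40.9 and 39.8 CPM in tamoxifen, with a log2 fold change of 0.04 ± 0.09 (SE). Il1rap had the smallest standard error of the 29 genes. Il1rl2 stood at 124, 135 and 109 CPM against 136, 90.5 and 136 CPM, with a log2 fold change of -0.02. The IL-1 receptor chain Il1r1 ranged from 4.94 to 16.0 CPM and the IL-18 receptor chain Il18r1 from 0.338 to 3.18 CPM, while the decoy receptor Il1r2 at the end of the same row was at 0. Il18bp, the soluble inhibitor of IL-18, ranged from 0.552 to 1.45 CPM.

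Il1rl1 has a distal and a proximal start in the RefSeq table, and both windows are shown because the gene carried most of the interleukin receptor signal in every library. The capitals mark a GATA match in each, 217 to 212 bases before the distal start (chr1:40429320-40429559, plus strand) and 103 to 98 bases before the proximal start (chr1:40439379-40439618, plus strand), the latter on the opposite strand.
Il1rl1 distal start: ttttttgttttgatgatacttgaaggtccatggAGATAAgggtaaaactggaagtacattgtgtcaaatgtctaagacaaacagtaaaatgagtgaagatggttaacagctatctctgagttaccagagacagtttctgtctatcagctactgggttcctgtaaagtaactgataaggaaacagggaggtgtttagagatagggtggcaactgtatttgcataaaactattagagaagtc
Il1rl1 proximal start: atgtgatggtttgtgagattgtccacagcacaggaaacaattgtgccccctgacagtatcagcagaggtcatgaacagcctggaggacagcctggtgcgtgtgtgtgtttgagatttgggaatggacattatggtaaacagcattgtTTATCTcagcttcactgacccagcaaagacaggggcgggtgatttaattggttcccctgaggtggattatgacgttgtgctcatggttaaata

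Among genes of the common gamma family, Il4ra, the IL-4 binding chain, stood at 42.0, 45.0 and 40.1 CPM in oil and 79.5, 85.4 and 44.4 CPM in tamoxifen. Tamoxifen 4 fell within the oil range, and the log2 fold change of 0.72 ± 0.22 (SE) had an adjusted p of 0.140. It was 0.96 without tamoxifen 4, with an adjusted p of 5.8e-05. The shared chain Il2rg stood at 133, 136 and 150 CPM in oil and 148, 176 and 152 CPM in tamoxifen, with a log2 fold change of 0.18 and an adjusted p of 0.323. Il2rg shares 728 exonic bases with the overlapping gene Gm20489 on the same strand. Il9r stood at 100.3, 99.0 and 94.9 CPM against 107, 127 and 92.3 CPM, with a log2 fold change of 0.14 and an adjusted p of 0.494. The groups overlapped in both.

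The cytokine with the highest level per kilobase was Il4 (11.3 CPM per kb in oil and 12.9 in tamoxifen). Il4 stood at 15.3, 12.9 and 13.3 CPM in oil and 18.5, 17.3 and 11.7 CPM in tamoxifen, with a log2 fold change of 0.20 and an adjusted p of 0.562. Its neighbor on chromosome 11, Il13, ranged from 2.03 to 3.78 CPM over the 6 libraries, while Il5 and Il3 of the same gene cluster had at most 4 counts and 0 counts. Il15, which sustains lymphocytes and mast cells, ranged from 1.71 to 4.01 CPM, with a log2 fold change of 0.67 and an adjusted p of 0.309. The groups overlapped in each of these cytokines.

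In the other families, Il10rb stood at 56.8, 64.0 and 59.8 CPM in oil and 64.4, 87.4 and 49.8 CPM in tamoxifen, with a log2 fold change of 0.16 and an adjusted p of 0.634. Il10rb shares 569 exonic bases with Gm21970 on the same strand. Il11ra1, the IL-11 binding chain, stood at 21.9, 21.7 and 26.1 CPM against 36.3, 45.7 and 23.5 CPM, with a log2 fold change of 0.60 and an adjusted p of 0.205. Reads of Il11ra1 may be shared with its close copy Il11ra2. Il27ra, the IL-27 binding chain, stood at 15.1, 16.9 and 17.4 CPM against 11.0, 20.9 and 23.0 CPM, with a log2 fold change of 0.15 and an adjusted p of 0.740. All of these groups overlapped. Il3ra, the IL-3 binding chain, ranged from 0.872 to 3.19 CPM, Il5ra, its IL-5 counterpart, from 0.103 to 1.13 CPM, Il20rb from 1.10 to 2.57 CPM, and Il4i1, a secreted amino acid oxidase, from 0.354 to 1.65 CPM. None of these passed the test.

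The position of tamoxifen 4 recurred across the 29 genes. Tamoxifen 1 and 2 were both above all the oil libraries for 16 genes and both below for 4. Among these 20, tamoxifen 4 lay inside the oil range or on its other side for 10, between the oil range and the other tamoxifen libraries for 8, and within or beyond the other tamoxifen libraries for 2. The same counts were not made over all genes tested, so they cannot be read as a trait of these genes. Without tamoxifen 4, 15 of 30 tested genes passed (50%, beside 36.3% of all genes), 12 as higher (background 19.2%) and 3 as lower (background 17.1%). These 15 were Il10ra, Il16, Il12rb2, Il17rc, Il22ra1, Il31ra, Il4ra, Il11ra1, Il15, Il17ra, Il18r1, Il1bos, Il1r1, Il1rl1 and Il9r. Of these, Il1bos was tested only because of its tamoxifen libraries. Without any 1 of the other 5 libraries none passed in edgeR, with 7 to 10 of 29 or 30 at an unadjusted p under 0.05, beside 11.6% to 14% of all genes in the same fits. DESeq2 called 7 of 29 (24.1%, beside 8.13% of all genes), 4 as higher (background 6.14%) and 3 as lower (background 1.99%). These were Il10ra, Il16, Il12rb2, Il4ra, Il17rc, Il22ra1 and Il31ra. Limma-voom called none (background 0.465%; 0.413% higher and 0.0517% lower), with 11 of 29 at an unadjusted p under 0.05, beside 20.2% of all genes.

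Since most of these receptors need a pair of chains, the levels of partner chains were set side by side as CPM per kb, without a test of their ratio. For the IL-10 receptor, the ratio of Il10ra to Il10rb was 0.0862, 0.0841 and 0.0842 in oil and 0.972, 1.03 and 0.285 in tamoxifen 1, 2 and 4. In tamoxifen 1 and 2 the chains were thus measured at nearly equal levels per kilobase. For the IL-17 receptor, the ratio of Il17rc to Il17ra was 0.571, 0.757 and 0.646 in oil and 0.274, 0.251 and 0.438 in tamoxifen. Since every tamoxifen library was below every oil library for Il17rc and above for Il17ra, this ratio had to separate the groups. It adds nothing to the values of the single genes. For the IL-22 receptor, the ratio of Il22ra1 to Il10rb was 0.288, 0.317 and 0.329 against 0.163, 0.148 and 0.283. For the IL-33 receptor, the level of Il1rl1 per kilobase was 70.9, 68.8 and 66.6 times that of Il1rap in oil and 103, 101 and 66.1 times in tamoxifen. The ratio of Il9r to Il2rg ranged from 0.294 to 0.362 over the 6 libraries, without a separation of the groups.

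Several chains had a partner with few or no counts. Il31ra had no counts of its partner Osmr in any library, and the TSLP receptor chain Crlf2 had none of its partner Il7r. Il27ra and Il11ra1 had at most 13.5 counts of their partner Il6st, and the alternative IL-4 and IL-13 receptor lacked its chain Il13ra1, with 1 count in all. The IL-3 and IL-5 receptor chains Il3ra and Il5ra were low, at most 1.07 and 0.315 CPM per kb, beside 89.5 to 310 CPM per kb of the shared chain Csf2rb.

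**Figure D4:**
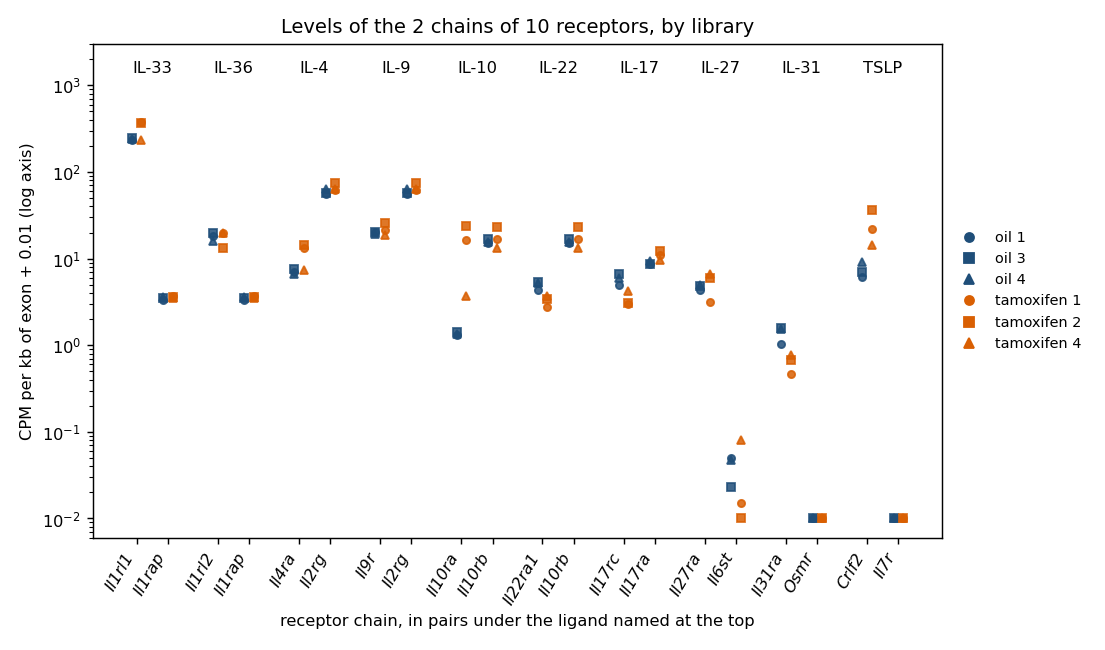
Level of the chains of 10 receptors in each library, as CPM per kb of exon plus 0.01 on a log axis, with the ligand named above each pair. Il10ra reaches the level of Il10rb in tamoxifen 1 and 2, and Il6st, Osmr and Il7r lie at or near the bottom in all libraries.

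Receptors and ligands of the same families that are not named Il were examined as well. Of 21 such genes, 11 were tested and 2 passed the test in edgeR as higher (background 1.75%), none as lower, with 6 at an unadjusted p under 0.05 (20.6% of all genes) and a median log2 fold change of 0.64. Crlf2, a chain of the TSLP receptor, rose from 9.12, 10.4 and 13.5 CPM in oil to 32.4, 54.4 and 21.5 CPM in tamoxifen, a log2 difference of 1.71 ± 0.33 (SE) at an adjusted p of 0.0435. Lif, a cytokine of the IL-6 family, rose from 0, 0 and 1 counts to 33, 50 and 20.5 counts, with an adjusted p of 0.0257. Its oil counts are too low for a fold. Lif had enough counts to be tested only because of its tamoxifen libraries, so it could be called only as higher. The groups did not overlap in either gene. Csf2rb, the shared chain of the IL-3, IL-5 and GM-CSF receptors, stood at 707, 827 and 652 CPM against 2087, 2254 and 861 CPM, with an adjusted p of 0.0905. Csf2rb2, its close copy specific to IL-3, stood at 166, 199 and 154 CPM against 1002, 1401 and 278 CPM, with an adjusted p of 0.0557, and the near-identical copies may share reads. Ebi3, a subunit of IL-27, stood at 0.563, 0.145 and 0.154 CPM against 1.54, 5.14 and 0.663 CPM, with an adjusted p of 0.117. Ebi3 too was tested only because of its tamoxifen libraries. Crlf2 and Lif lost their calls without any 1 library other than tamoxifen 4, with adjusted p of at least 0.0811 and 0.0633.

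Downstream of the receptors, 1 gene passed. In the IL-1 and IL-18 signalling list, 16 of 18 genes were tested and none passed in edgeR, with 4 at an unadjusted p under 0.05 (20.6% of all genes) and a median log2 fold change of 0.14, whereas DESeq2 called 2 as higher (6.14% of all genes). The largest differences were those of the IL-17 receptor adaptor Traf3ip2 (log2 fold change 1.37, adjusted p 0.142), the RNase gene Zc3h12a (0.87, 0.124) and the NF-kB cofactor Nfkbiz (0.38, 0.472). In this list every tamoxifen library was above every oil library for 3 of the 16 (background 13.3%) and below for 2 (background 11.8%). The 2 below were Tab1 (-0.22, 0.196) and Tab3 (-0.29, 0.188), named after their values were seen. In the list of JAK kinases and STAT factors, 10 of 11 genes were tested and none passed in edgeR, with 4 at an unadjusted p under 0.05 (20.6% of all genes), and neither DESeq2 nor limma-voom called any. All 10 values were positive (median log2 fold change 0.19), the largest being those of Stat2 (0.40, adjusted p 0.205), Jak3 (0.33, 0.226) and Stat3 (0.32, 0.236). In the list of feedback inhibitors and immediate cytokine targets, 16 of 18 genes were tested. In edgeR 1 passed as higher (background 1.75%) and none as lower (background 0.267%), with 4 at an unadjusted p under 0.05 (20.6% of all genes) and a median log2 fold change of 0.00392. Every tamoxifen library was above every oil library for 3 of the 16 (background 13.3%) and below for 2 (background 11.8%). Those below were Ptpn11 and Pias4, named after their values were seen, with adjusted p of 0.317 and 0.464 in edgeR. Socs1, an inhibitor of JAK kinases, rose from 42.3, 35.7 and 41.7 CPM in oil to 86.9, 117 and 60.2 CPM in tamoxifen, a log2 difference of 1.14 ± 0.22 (SE) at an adjusted p of 0.0438. Its call was lost without any 1 library other than tamoxifen 4, with adjusted p of at least 0.0945. Cish, a STAT5-induced inhibitor, stood at 55.7, 53.0 and 45.8 CPM against 85.3, 97.5 and 57.7 CPM (adjusted p 0.123), and the kinase gene Pim1 at 121, 110.1 and 105 CPM against 163, 191 and 126 CPM (adjusted p 0.127). The anti-apoptotic gene Bcl2l1 had a log2 fold change of 0.31 and an adjusted p of 0.239.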

How the data were processed

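The data were 6 bulk RNA-seq libraries of sorted mouse AE9a leukemia cells, 3 labelled oil and 3 labelled tamoxifen. The deposited table held expected counts per gene that the authors had not scaled between libraries, 25.9% to 27.3% of them not whole. STAR, DESeq2 and mm10 are named by the submitters' processing notes, while the counting program, its strand setting and the annotation are not given in the sources used here. A spreadsheet had turned 26 symbols into dates. Sample titles carry the numbers 1, 2 and 4 for oil and 1, 3 and 4 for tamoxifen, but table columns carry 1, 3 and 4 for oil and 1, 2 and 4 for tamoxifen. The unmatched columns, oil 3 and tamoxifen 2, served as replicates of the group in their name. ATAC-seq of the same study was not analysed here.

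Counts were rounded and analysed in R 4.3.3 with edgeR 4.0.16 (filterByExpr by group, TMM, quasi-likelihood F test, Benjamini-Hochberg over all genes tested, threshold 0.05). CPM is relative to the TMM-scaled library size and was divided by the GENCODE M21 exonic length (GRCm38) for levels per kilobase. DESeq2 1.42.0, limma-voom 3.58.1, other size factors, a 50-count mean filter or none, a replicate block and leaving out each library in turn were alternatives, and a fit of the unrounded counts was chosen after seeing the data. The scripts were tested on simulated data. Replicates of a group were not repeated libraries by a chi-square test of their counts.

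The members and lists were chosen with earlier results of these data known. Every tested member is named, with its value in each library for those called, those with groups that did not overlap and the 12 with the highest mean CPM. Of the pathway lists, genes with an adjusted p under 0.05 and at most 3 others with the largest log2 fold change at a mean of at least 1 CPM are named.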

Additional observations from a re-analysis of the deposited data

How the results depend on the processing

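Of 395 values of single members under an alternative, 349 kept their direction and their side of the threshold, 12 lost and 19 gained a call, and 15 values of 6 members changed sign, none of them called. The causes were not tested. Of the 54 untested members, 29 had no count in any library, which allows up to 3 counts in each.

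For genes called over all genes (203 higher, 31 lower), DESeq2 gave 713 and 231, limma-voom 48 and 6, no filter 372 and 61, and a mean of 50 counts 120 and 17. Leaving out 1 library gave 8 to 2278 higher and 0 to 2024 lower, the highest values without tamoxifen 4. For the interleukin genes (2 higher, 0 lower), DESeq2 gave 4 and 3, limma-voom 0 higher, no filter 1 lower, and leaving out 1 library 0 to 12 higher and 0 to 3 lower. Non-overlapping higher members (6) were 3 with the 50-count filter and 7 to 16 without 1 library. The member median (0.22) was 0.60 without a filter.

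Of the same families not named Il (2 higher, 0 lower), DESeq2 called 6 higher, limma-voom 1, no filter 4 and the 50-count filter 0. Leaving out 1 library gave 0 to 7 higher, 0 to 1 lower and medians of 0.52 to 1.201. IL-1 signalling (0 higher) had 2 in DESeq2. Without 1 library it had 0 to 8 higher, 0 to 1 lower and medians of 0.076 to 0.29, and the JAK and STAT list 0 to 6 higher. Feedback genes called higher (1) were 3 in DESeq2, 0 in limma-voom and with the 50-count filter, and 0 to 4 without 1 library. Their median was 0.0196 with upper-quartile factors and -0.00873 to 0.0265 without 1 library. Usp18 (0.998) passed in DESeq2 (0.9997), with no filter (0.99) and without tamoxifen 4 (1.04), and ranged from 0.73 to 1.18 without 1 library.

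Signs changed for 6 members when 1 library was left out, with ranges of -0.60 to 0.53 for Il18bp, -0.12 to 0.35 for Il13, -0.046 to 0.42 for Il27ra, -0.29 to 0.88 for Il5ra, -0.12 to 0.15 for Il1rl2 and -0.074 to 0.33 for Il10rb. Libraries of the 2 groups share the numbers 1 and 4, with correlations of -0.127 and 0.0616, so only the numbers are shared. Under the replicate block, 2 members were called, the same ones (Il10ra and Il16), 4 genes of the families not named Il were called higher, the feedback median was -0.0142, and values changed sign for Il18bp (0.64), Il13 (-0.18), Il27ra (-0.015), Il1rl2 (0.23), Il10rb (-0.042) and Nfkbiz (-0.048).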
